A study of Homo sapiens with 2 samples.

Results

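The interleukin-6 family of cytokines and receptors was examined in A172, an established human glioblastoma line, and in a temozolomide-resistant derivative of it. The genes were chosen by name as cytokines, receptor chains and signalling genes of this family. Of 9 genes named in that choice, 8 were read among the 15603 genes of the table: IL11, LIF, CLCF1, IL6ST, LIFR, OSMR, STAT3 and SOCS3. IL6 was not analysed here. The resistant group was a clone, labelled A172-r#6, selected by the alkylating drug temozolomide (TMZ) and labelled as treated with TMZ. The parental group was A172 labelled as without TMZ. Each group held 1 library of stranded mRNA sequencing, and the effects of cloning, of selection and of the drug itself cannot be told apart. Every difference below is one between these 2 libraries, with no replicate check.

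Cytokines of this family act through a shared signalling chain, gp130, encoded by IL6ST. IL6 and IL11 first bind their own receptor chain, IL6R or IL11RA, and then join gp130 chains. LIF and CLCF1 signal through gp130 paired with LIFR, and oncostatin M through gp130 paired with OSMR or LIFR. The paired chains activate JAK kinases, which phosphorylate STAT3. STAT3 enters the nucleus and switches on target genes, among them SOCS3, whose protein binds gp130 and JAK and dampens the signal. In glioblastoma, IL6 family signalling and STAT3 are known for their link with the mesenchymal state. A transcript level says nothing by itself of how much STAT3 is phosphorylated, and no protein was measured here.

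In the resistant library the transcripts of the ligand IL11 and of the 3 receptor chains chosen, IL6ST, LIFR and OSMR, stood above their parental levels. STAT3 and SOCS3 stood slightly below them. IL11 and OSMR passed a 2-fold threshold and none of the 8 chosen genes was at least 2-fold lower. IL11RA, the receptor chain that binds IL11, was not among the 8 and was called lower (log2 fold -1.28). The fold is log2 of resistant over parental, each as FPKM + 1. FPKM counts sequenced fragments relative to transcript length and library size, so values can be set side by side between genes, and between libraries as far as the scaling holds. The added 1 shrinks the fold of weakly expressed genes. A gene was compared if either library gave it at least 1 FPKM, and it was called when the fold was at least 2 in size (a log2 fold of 1). Of 13937 genes compared, 4.59% (640) were called higher and 3.82% (532) lower. The split depended on scaling, with 492 higher and 646 lower when both libraries were scaled to the same FPKM sum. All 8 family genes passed the filter. With 2 of 8 called higher the count is small, and it was 1 of 8 under either of the other scalings tried, where OSMR dropped below the threshold.

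**Figure D1:**
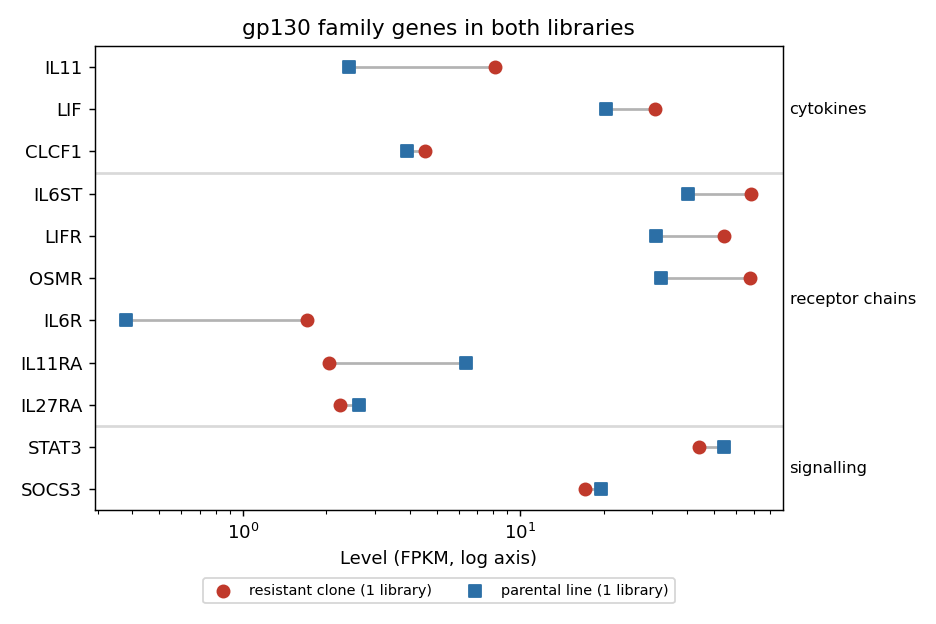
Level of each gene in FPKM (log axis) in the resistant library (red circles) and the parental library (blue squares), grouped into cytokines, receptor chains and signalling genes; each point is 1 library and the grey line joins the pair. The 3 signalling chains lie between 54.4 and 68.3 FPKM in the resistant library and between 31.0 and 40.5 FPKM in the parental one, while IL6R and IL11RA are far lower and move in opposite directions.

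IL11, a secreted cytokine of stromal and tumour cells, had the largest fold of the family. IL11 was at 8.14 FPKM in the resistant library and at 2.42 FPKM in the parental one, a plain ratio of 3.37 and a log2 fold of 1.42. Of all compared genes, 98.5% had a lower fold. In the order of levels, IL11 lay above 47.7% of compared genes in the resistant library and above 20.7% in the parental library, so it was of middle rank in the first and low in the second. The authors' deposited table gave IL11 a q-value of 0.00559. That q-value comes from a comparison of these same 2 libraries, by a test that is not stated, and says nothing of other cultures. IL11 (ENSG00000095752) lies on chromosome 19 from 55364389 to 55370463 on the minus strand (GRCh38), and no other annotated gene overlaps its exons.

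The stretch just before the start of IL11 is shown because this gene moved most, and because AP-1 is a known inducer of it. The letters are from RefSeq (GRCh38.p14, chr19:55370464-55370713, minus strand), 250 bases ending at the base before the annotated start, and capitals mark a match to the AP-1 motif TGANTCA, where N is any base.
IL11: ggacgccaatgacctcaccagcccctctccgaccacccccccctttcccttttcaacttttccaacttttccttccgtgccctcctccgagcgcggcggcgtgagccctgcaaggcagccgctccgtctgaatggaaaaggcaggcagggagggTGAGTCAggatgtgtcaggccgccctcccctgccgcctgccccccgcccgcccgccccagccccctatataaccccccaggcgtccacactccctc
The match, TGAGTCA, lies 96 to 90 bases before the start. The same letters, searched on both strands, occurred in 6.57% of 35116 such stretches. Of the other motifs searched, none matched before IL11: STAT (TTCNNNGAA), NF-kB (GGGA, any base, then TTTCC), C/EBP (TTGCNNAA) and CRE (TGACGTCA). A match is a run of letters and does not show that a factor binds there.

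LIF, the leukemia inhibitory factor, was the most abundant of the cytokines in both libraries. LIF had 30.7 FPKM in the resistant library and 20.4 FPKM in the parental one, a log2 fold of 0.57 that stayed under the threshold. The ratio of LIF to IL11 was 3.78 in the resistant library and 8.44 in the parental one, so IL11 made up more of the pair in the resistant library. CLCF1, a cardiotrophin-like cytokine, had 4.54 FPKM in the resistant and 3.92 FPKM in the parental library (log2 fold 0.17). The differences of LIF and CLCF1 were both under 2-fold. LIF (ENSG00000128342) lies on chromosome 22 from 30240447 to 30246851, and CLCF1 (ENSG00000175505) on chromosome 11 from 67364168 to 67374177, both on the minus strand (GRCh38). CLCF1 is uncertain, because a second annotated gene, AP003419.1, shares exon sequence with it on the same strand. On the opposite strand, annotated genes overlap exons of LIF (LIF-AS1 and AC004264.1) and of IL6ST (AC008914.1). Whether strand was used in counting is not given in the sources used here, so reads of these could not be told apart if it was not.

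Of the other cytokines that signal through gp130, CTF1 (cardiotrophin 1) and CNTF (ciliary neurotrophic factor) were low. CTF1 had 1.83 FPKM in the resistant and 1.66 FPKM in the parental library. CNTF had 0.302 FPKM in the resistant and 1.45 FPKM in the parental library, a log2 fold of -0.91. CNTF crossed the threshold as lower with smaller pseudocounts, at -1.28 with 0.5 and at -1.95 with 0.1. OSM, IL27 and EBI3 were not analysed here. With the pseudocount of 1 neither was called, and the median log2 fold of all compared genes was 0.04.

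The signal-transducing receptor chains chosen, OSMR, LIFR and IL6ST, were among the more abundant transcripts of both libraries, and all 3 were higher in the resistant one. OSMR, the oncostatin M receptor chain, had 67.5 FPKM in the resistant library and 32.4 FPKM in the parental one, a log2 fold of 1.04. It was the second family gene past the threshold, and the call rests on scaling. The FPKM summed to 323932 in the resistant and 299594 in the parental library, and the log2 fold was 0.93 after scaling to the same sum and 0.96 after scaling to the same upper quartile. LIFR, the leukemia inhibitory factor receptor chain, had 54.4 FPKM in the resistant library and 31.0 FPKM in the parental one (0.79). IL6ST, the shared gp130 chain, had 68.3 FPKM in the resistant library and 40.5 FPKM in the parental one (0.74). Both stayed under 2-fold and passed a 1.5-fold threshold, which 14.5% of compared genes passed upward. OSMR had a higher fold than 95.8% of compared genes, LIFR than 91.8% and IL6ST than 90.5%.

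Summed over the 3 chains, the level was 190 FPKM in the resistant library and 104 FPKM in the parental one. LIFR stood in a similar proportion to IL6ST in both libraries, and OSMR did not. LIFR stood at 0.796 of IL6ST in the resistant library and at 0.765 in the parental one. OSMR stood at 0.988 of IL6ST in the resistant library, nearly level with it, and at 0.799 in the parental library. The order was IL6ST, OSMR, LIFR in both libraries. OSMR and LIFR were close in the parental library, and OSMR and IL6ST were close in the resistant one. With 1 library per group, the spread that would separate such neighbours is unknown. The authors' deposited table gave q-values of 0.0329 for OSMR, 0.117 for LIFR and 0.0855 for IL6ST.

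**Figure D2:**
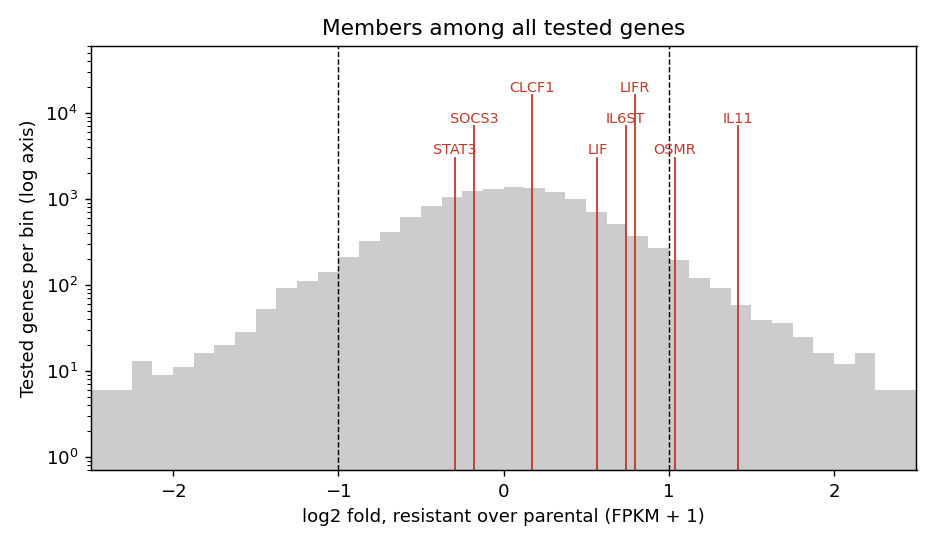
Histogram of the log2 fold (resistant over parental, FPKM + 1; bins of equal width, vertical log axis) of the compared genes, shown between -2.5 and 2.5, with a red line at each family gene; line heights only keep the names apart, and dashed lines mark the 2-fold threshold. IL11 at 1.42 and OSMR at 1.04 lie past the upper line, the other receptor chains lie below it, and STAT3 (-0.29) and SOCS3 (-0.18) lie left of 0.

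IL6R and IL11RA, which bind IL6 and IL11 and were not among the family genes chosen, were low and moved apart. IL11RA, the binding chain for IL11, had 2.05 FPKM in the resistant library and 6.40 FPKM in the parental one, a log2 fold of -1.28 that passed the threshold as lower. Thus the ligand IL11 was called higher and its own binding chain lower in the same comparison. IL6R, the binding chain for IL6, had 1.70 FPKM in the resistant library and 0.380 FPKM in the parental one (0.97). IL6R stayed just under the threshold with the pseudocount of 1 and passed it with smaller ones, at 1.32 with 0.5 and 1.91 with 0.1. In the parental library IL11RA exceeded IL6R by a ratio of 16.9, and in the resistant library the ratio was 1.20. IL27RA, which pairs with gp130 for interleukin-27, had 2.24 FPKM in the resistant and 2.62 FPKM in the parental library (-0.16). CNTFR was not analysed here.

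Both binding chains stayed far below gp130. IL6ST exceeded IL11RA by a ratio of 33.3 in the resistant library and 6.32 in the parental one. IL6ST exceeded IL6R by 40.1 in the resistant library and 107 in the parental one. The authors' deposited log2 ratio, which has no pseudocount, was 2.16 for IL6R and -1.64 for IL11RA. IL11RA is uncertain, because GALT, its neighbour at 7.37 FPKM in the resistant and 11.8 FPKM in the parental library, shares exon sequence with it on the same strand.

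Chains of the class I cytokine receptors outside this family, with a few of their more distant relatives, were read for comparison. None of 10 compared was called in either direction, and their median log2 fold was 0.09. Few genes were called at all, 4.59% higher and 3.82% lower over all compared genes, so this count does not set the list apart. The most abundant, IL7R, the interleukin-7 receptor chain, had 28.9 FPKM in the resistant and 41.9 FPKM in the parental library (-0.52). IL13RA1, a chain for interleukin-13 and interleukin-4, had 16.1 FPKM in the resistant and 10.5 FPKM in the parental library (0.57), the highest fold of that list. IL2RG had 1.06 FPKM in the resistant and 0.518 FPKM in the parental library (0.44), and IL4R had 8.22 FPKM in the resistant and 6.21 FPKM in the parental library (0.35). IL6ST, LIFR and OSMR each had a higher fold than these 10. The lists were chosen with these data known, so the order is a description.

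LIFR, OSMR and IL6ST all lie on chromosome 5 (GRCh38). LIFR (ENSG00000113594) spans 38474963 to 38608354 on the minus strand, and OSMR (ENSG00000145623) spans 38845858 to 38945596 on the plus strand, the next protein-coding gene of the table. IL6ST (ENSG00000134352) spans 55935095 to 55994993 on the minus strand, on the other side of the centromere. The listed genes around them were read as well. Of 11 compared neighbours of LIFR and OSMR, none was called higher and 1 was called lower, with a median log2 fold of -0.22. Over all compared genes 4.59% were called higher and 3.82% lower, so counts this small say little. The 1 called lower, CTD-2078B5.2, had 0.348 FPKM in the resistant and 1.74 FPKM in the parental library. CTD-2124B8.2, LIFR-AS1 and OSMR-AS1 were also low in both libraries and had negative folds, so the median rests in part on weakly expressed genes. DAB2, an endocytic adaptor, had 65.5 FPKM in the resistant and 48.1 FPKM in the parental library (0.44). RICTOR, a subunit of the mTORC2 kinase complex, had 15.7 FPKM in the resistant and 12.6 FPKM in the parental library (0.29). Of the 11 neighbours, 4 had a positive fold and 7 a negative one, and the highest, DAB2, was below both receptor genes.

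The antisense transcripts at the locus were low. LIFR-AS1 had 0.697 FPKM in the resistant and 1.25 FPKM in the parental library, and OSMR-AS1 had 0.697 FPKM in the resistant and 1.14 FPKM in the parental library. Both stood below their parental level while LIFR and OSMR stood above it. LIFR-AS1 overlaps exons of LIFR, and RICTOR overlaps exons of OSMR at its far end, each on the opposite strand. LIFR-AS1 was far below LIFR. RICTOR had 15.7 FPKM in the resistant and 12.6 FPKM in the parental library, beside 67.5 and 32.4 FPKM for OSMR. OSMR is therefore uncertain if strand was not used in counting. Of 9 compared neighbours of IL6ST, none was called higher and 1 was called lower, with a median log2 fold of 0.05. These counts too are small beside the shares over all compared genes, 4.59% higher and 3.82% lower. The 1 called lower, RNF138P1, was at 0 FPKM in the resistant and 1.31 FPKM in the parental library. MAP3K1, a kinase of the JNK pathway, had 7.53 FPKM in the resistant and 5.96 FPKM in the parental library (0.29). SKIV2L2, an RNA helicase, had 38.1 FPKM in the resistant and 28.3 FPKM in the parental library (0.41).

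**Figure D3:**
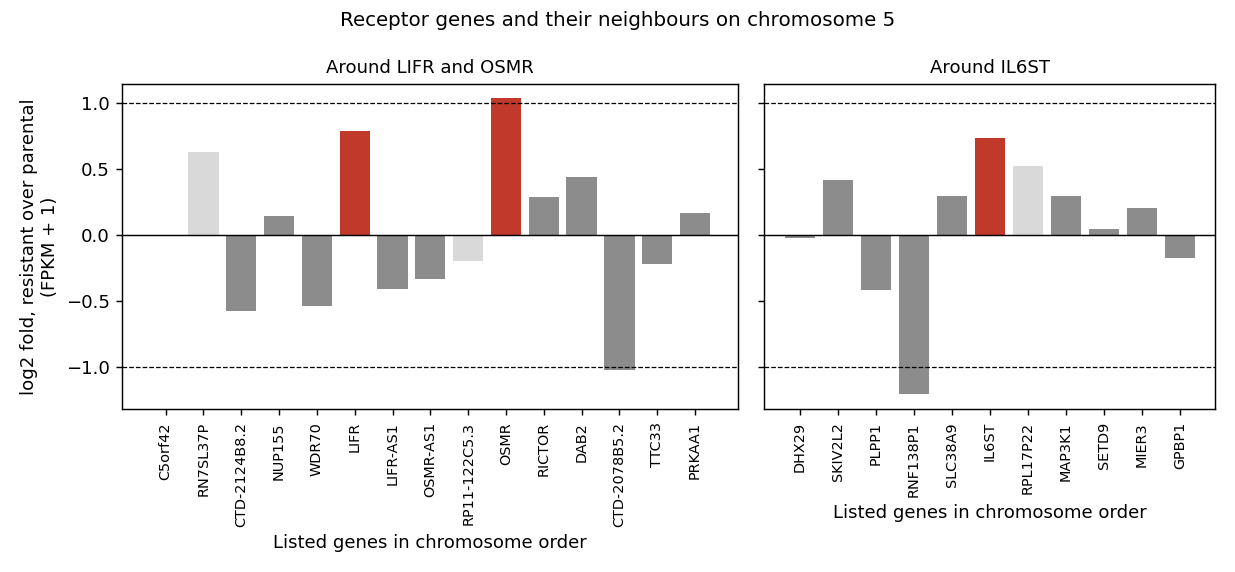
Log2 fold (resistant over parental, FPKM + 1) of the listed genes on chromosome 5 in chromosome order, around LIFR and OSMR (left) and IL6ST (right); red bars are the family genes, dark grey bars compared neighbours, light grey bars genes under the filter of 1 FPKM, and dashed lines mark 2-fold. The red bars at 0.79, 1.04 and 0.74 reach higher than any compared neighbour's bar, and the bars between and beside them point both ways.

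Stretches before LIFR and IL6ST are shown because both receptor genes stood higher in the resistant library. For OSMR, the longest part outside annotated exons had 28 bases, and its letters are not given. The letters are from RefSeq (GRCh38.p14). For LIFR, the stretch before its most upstream RefSeq start is given (chr5:38595406-38595655, minus strand), which lies within the annotated span of the gene and outside its exons, and capitals mark a match to the STAT motif TTCNNNGAA. For IL6ST, the part outside annotated exons is given (chr5:55994994-55995166, minus strand), with no match to any of the 5 motifs.
LIFR: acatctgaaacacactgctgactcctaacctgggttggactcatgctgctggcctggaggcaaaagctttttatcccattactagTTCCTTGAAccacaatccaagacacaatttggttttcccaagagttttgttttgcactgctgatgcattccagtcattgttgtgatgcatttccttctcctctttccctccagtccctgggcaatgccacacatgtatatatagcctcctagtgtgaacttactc
IL6ST: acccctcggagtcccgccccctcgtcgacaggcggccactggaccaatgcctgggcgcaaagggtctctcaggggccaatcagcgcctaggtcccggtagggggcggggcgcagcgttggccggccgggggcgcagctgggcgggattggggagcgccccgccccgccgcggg
The LIFR match, TTCCTTGAA, lies 165 to 157 bases before that start, and a second RefSeq start of LIFR also had a STAT match, TTCATCGAA. The STAT letters occurred in 6.57% of all 35116 stretches. That second stretch, which annotated exons cover, also held the C/EBP match TTGCAAAA, and the stretch before the third start of LIFR held no match. The stretch before the RefSeq start of OSMR held the same C/EBP letters, TTGCAAAA, 73 to 66 bases before that start. The RefSeq start lies downstream of the GENCODE start of OSMR given above, so that match falls inside the gene as annotated, in exon sequence. C/EBP letters occurred in 9.05% of stretches. No motif was shared by the stretches of all 3 receptor genes. Stretches were found for 7 of the 9 genes named, and those of STAT3 and SOCS3 held none of the 5 motifs. The SOCS3 stretches lie farther upstream of its GENCODE start or inside the gene. The bases just before that start were therefore not searched.

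STAT3, the transcription factor on which the receptors converge, did not follow them. STAT3 had 44.3 FPKM in the resistant library and 54.5 FPKM in the parental one, a log2 fold of -0.29. SOCS3, the feedback inhibitor that STAT3 induces, had 17.2 FPKM in the resistant library and 19.6 FPKM in the parental one (-0.18). Neither reached 2-fold, and both stood below the median gene, with lower folds in 25.8% of compared genes for STAT3 and 33.3% for SOCS3. SOCS3 stood at 0.388 of STAT3 in the resistant library and at 0.359 in the parental one. For STAT3 and SOCS3 the authors' deposited table gave q-values of 0.640 and 0.863. STAT3 (ENSG00000168610, 42313324 to 42388568) and SOCS3 (ENSG00000184557, 78356778 to 78360077) both lie on the minus strand of chromosome 17, and no other annotated gene overlaps their exons.

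The JAK kinases and the other STATs differed little. None of 9 compared was called in either direction, and their median log2 fold was -0.10. Over all compared genes only 4.59% were called higher and 3.82% lower, so no call among 9 is unremarkable. JAK1, the main kinase bound to gp130, had 34.5 FPKM in the resistant and 25.9 FPKM in the parental library (0.40). JAK3 had 0.930 FPKM in the resistant and 1.30 FPKM in the parental library, and STAT5A had 2.96 FPKM in the resistant and 5.05 FPKM in the parental library (-0.61), the lowest fold of the list.

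Of 16 inhibitors of JAK-STAT signalling none was called, with a median log2 fold of 0.10. With 4.59% of all compared genes called higher and 3.82% lower, few calls would be found in any list this short. SOCS2, an inhibitor known from growth hormone signalling, had 49.8 FPKM in the resistant and 26.4 FPKM in the parental library (0.89). SOCS2 exceeded SOCS3 by a ratio of 2.90 in the resistant library and 1.35 in the parental one. An antisense gene, SOCS2-AS1, overlaps exons of SOCS2 and had 9.07 FPKM in the resistant and 4.01 FPKM in the parental library, so the pair is uncertain if strand was not used in counting. PTPN11, the phosphatase SHP2 that docks on gp130, had 37.2 FPKM in the resistant and 25.2 FPKM in the parental library (0.54). SOCS6 had 9.78 FPKM in the resistant and 6.69 FPKM in the parental library (0.49). SOCS5 had 13.9 FPKM in the resistant and 19.1 FPKM in the parental library (-0.43).

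Genes known as STAT3 targets were divided. Of 23 compared, 5 were called higher and 1 lower, with a median log2 fold of 0.27. Over all compared genes 4.59% were called higher and 3.82% lower, with a median of 0.04. The list was chosen with earlier results of these data known, so the counts are a description. MYC, the growth-driving transcription factor, had 26.2 FPKM in the resistant and 4.99 FPKM in the parental library (2.18). HIF1A, the oxygen-regulated transcription factor, had 260.0 FPKM in the resistant and 83.3 FPKM in the parental library (1.63). CEBPB, a partner of STAT3 at acute-phase genes, had 70.3 FPKM in the resistant and 26.2 FPKM in the parental library (1.39). FOS, an immediate early AP-1 subunit, was the only one called lower, at 0.336 FPKM in the resistant and 4.23 FPKM in the parental library (-1.97). The remaining members called higher were named after their values were seen. CCND1, the cyclin that starts the cell cycle, had 146 FPKM in the resistant and 61.7 FPKM in the parental library (1.23). VEGFA, the endothelial growth factor, had 87.3 FPKM in the resistant and 38.6 FPKM in the parental library (1.16).

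Of the 23 targets, 17 had a positive fold and 6 a negative one. Of all 13937 compared genes, 7431 had a positive fold and 6506 a negative one. Among those not called, named here after their values were seen, SBNO2 had 24.7 FPKM in the resistant and 13.1 FPKM in the parental library (0.87) and PIM1 had 18.2 FPKM in the resistant and 11.4 FPKM in the parental library (0.63). Others, also named after their values were seen, were closer in both libraries. BCL3 had 6.14 FPKM in the resistant and 7.84 FPKM in the parental library, JUNB 12.9 FPKM in the resistant and 15.8 FPKM in the parental library, and SAA1 5.45 FPKM in the resistant and 4.29 FPKM in the parental library. All of the targets called have other regulators as well, so the list is no reading of STAT3 activity.

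**Figure D4:**
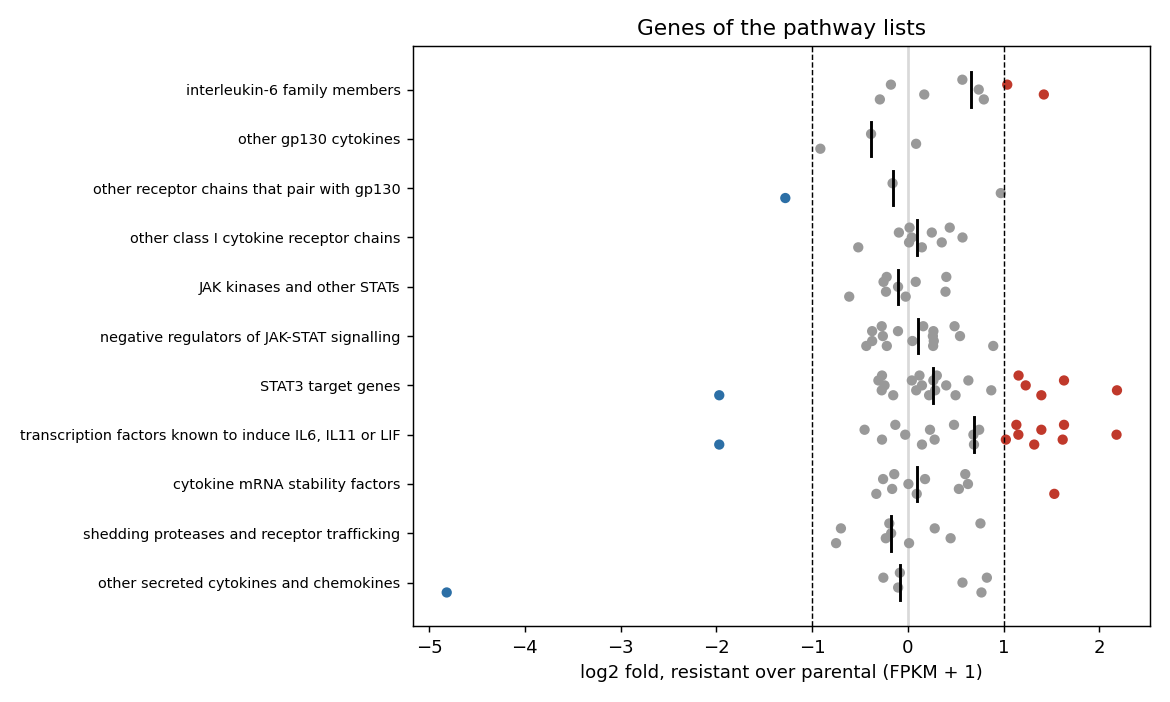
Log2 fold (resistant over parental, FPKM + 1) of each compared gene in the pathway lists, 1 point per gene, red when at least 2-fold higher, blue when at least 2-fold lower and grey otherwise; black bars are list medians and dashed lines mark 2-fold. The family genes (median 0.65) and the factors known to induce IL6, IL11 or LIF (median 0.69) lie furthest right, and JAK kinases and other STATs lie around 0.

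Transcription factors known to induce IL6, IL11 or LIF were the list with the most genes called higher. Of 20 compared, 8 were called higher and 1, FOS, lower, with a median log2 fold of 0.69. The shares over all compared genes were 4.59% higher and 3.82% lower, and their median was 0.04. This list too was chosen with earlier results of these data known, so its rank is a description. FOSL1, an AP-1 subunit, had 12.5 FPKM in the resistant and 1.98 FPKM in the parental library (2.18). ATF3, a stress-induced factor that pairs with AP-1 subunits, had 37.7 FPKM in the resistant and 11.6 FPKM in the parental library (1.62). The other members called higher were HIF1A, CEBPB, RELB, RUNX2, NFKB2 and FOSL2, of which RUNX2, NFKB2 and FOSL2 are named after their values were seen. RELB, a subunit of the noncanonical NF-kB pathway, had 7.71 FPKM in the resistant and 2.49 FPKM in the parental library (1.32), and its partner NFKB2 had 36.3 FPKM in the resistant and 16.0 FPKM in the parental library (1.13). This list shares 5 genes with the STAT3 targets, 2 of them called higher and 1 called lower in both counts. NFKB1, which encodes the canonical subunit p50, had 13.9 FPKM in the resistant and 14.2 FPKM in the parental library; it was chosen here after its values were seen. A part of these factors in the IL11 level was not tested.

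Factors that act on cytokine mRNA or on receptor shedding and trafficking were mostly under the threshold. Beside shares of 4.59% higher and 3.82% lower over all compared genes, 1 of 11 mRNA stability factors was called higher and none lower (median log2 fold 0.09). That gene, ZFP36L2, which promotes decay of AU-rich mRNAs, had 8.43 FPKM in the resistant and 2.27 FPKM in the parental library (1.53). ZFP36L1 had 63.1 FPKM in the resistant and 40.5 FPKM in the parental library (0.63). ZC3H12A, the endonuclease Regnase-1 that cuts IL6 mRNA, had 2.31 FPKM in the resistant and 2.96 FPKM in the parental library (-0.26) and was chosen here after its values were seen. Of 9 shedding and trafficking genes none was called (median -0.17), and 1, SORL1, was called lower with pseudocounts of 0.1 and 0.5. STUB1, a ubiquitin ligase, had 59.2 FPKM in the resistant and 34.6 FPKM in the parental library (0.76). SORT1, the sorting receptor sortilin, had 27.2 FPKM in the resistant and 44.8 FPKM in the parental library (-0.70). SORL1, a sorting receptor that binds IL6R, had 0.512 FPKM in the resistant and 1.54 FPKM in the parental library (-0.75). ADAM17, the protease that sheds IL6R, had 39.1 FPKM in the resistant and 38.8 FPKM in the parental library and was also chosen after its values were seen.

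Other secreted cytokines did not move as one. Of 7 compared, none was called higher and 1 was called lower, with a median log2 fold of -0.08. For all compared genes the shares were 4.59% higher and 3.82% lower. CCL2, a chemokine for monocytes that IL6 family signalling can induce, had 0.840 FPKM in the resistant and 50.8 FPKM in the parental library (-4.81). IL1A, an inducer of IL6 and LIF, had 1.02 FPKM in the resistant and 0.138 FPKM in the parental library (0.82), and it passed the threshold with smaller pseudocounts. CSF1, a macrophage growth factor, had 24.5 FPKM in the resistant and 14.0 FPKM in the parental library (0.77). IL15 had 5.35 FPKM in the resistant and 3.28 FPKM in the parental library (0.57).

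Marker lists of glioma and other cell types were read as a description, and they do not settle the identity of the cells. Of 9 compared glioma and astrocyte markers none was called higher and 2 were called lower, with a median log2 fold of -0.30. Among all compared genes 4.59% were called higher and 3.82% lower, with a median of 0.04. Vimentin, VIM, chosen here after its values were seen, had 804 FPKM in the resistant and 632 FPKM in the parental library, and CD44, a mesenchymal glioma marker, had 161 FPKM in the resistant and 83.1 FPKM in the parental library. The 2 called lower were nestin, NES, at 5.08 FPKM in the resistant and 33.7 FPKM in the parental library, and SOX2, at 0.253 FPKM in the resistant and 2.23 FPKM in the parental library. CLU and GLUL, astrocyte genes, had log2 folds of -0.90 each, and OLIG2 and EGFR had log2 folds of 0.86 and 0.76; GLUL, OLIG2 and EGFR were also chosen after their values were seen. GFAP, AQP4, S100B, FABP7 and SLC1A3 were not analysed here. Of 15 myeloid and lymphoid markers 2 were read, PTPRC and CD68, and their summed level was 0.919 FPKM in the resistant and 2.52 FPKM in the parental library. CD68, under the filter, was named after its values were seen. Of 10 endothelial and fibroblast markers 9 were read. Of these 7 passed the filter, none was called higher and 3, COL1A1, TEK and COL3A1, were called lower. LUM, the proteoglycan lumican, was just under the threshold on the higher side, at 33.0 FPKM in the resistant and 16.4 FPKM in the parental library (0.96). The 9 summed to 319 FPKM in the resistant and 658 FPKM in the parental library, and COL3A1 alone had 234 FPKM in the resistant and 532 FPKM in the parental library. In these bulk libraries a change in the mix of cells and a change in RNA per cell cannot be told apart.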

How the data were processed

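RNA from 1 resistant and 1 parental culture was sequenced with a stranded mRNA library kit, per the labels' protocols. Not given in the sources used here are the aligner, quantifier, annotation, genome build and use of strand in counting. The authors deposited FPKM for each library, per the file headers, with their log2 ratio, p-values and q-values of the same comparison; their test and scaling are not stated. In the deposited log2 column, a score with a placeholder where a gene was listed at 0 in 1 library, the value equalled log2 of the FPKM ratio within 0.001 for all 15310 genes above 0 in both. Sequencing depth is unknown: low single-exon values showed no clear steps of 1 fragment, with 26.8% in the resistant and 26.4% in the parental library within 0.1 of a whole multiple at the best step, where 20% would be so by chance at any 1 step. No counting interval is therefore given.

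From the FPKM were computed log2 folds with a pseudocount of 1, for genes reaching 1 FPKM in at least 1 library, and 2-fold calls (Python 3.11.15, pandas 2.3.3). There is no p-value, since there was 1 library per group. The calling rule was tested on simulated data, with the changed genes set well past the threshold. That does not bear on calls near the threshold, such as OSMR, or on the unknown replicate spread. Alternatives were pseudocounts of 0.1 and 0.5, no filter or a filter of 5 FPKM, scaling to the same sum (TPM) or upper quartile, and 1.5-fold and 4-fold thresholds. The family genes and the lists were chosen with earlier results of these data known. Named genes are the family, up to 4 of each list with the largest folds, chromosome 5 neighbours (5 listed genes to each side) and the 3 genes nearest in level to each called gene. Genes that overlap exons of named genes were named for that overlap. Others are said to have been chosen after their values were seen. Of the identifiers, 15531 matched GENCODE release 29 (GRCh38), the source of gene coordinates and overlaps. Sequences before gene starts are from RefSeq (GRCh38.p14). Some items of the lists are not reported here.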

Additional observations from a re-analysis of the deposited data

How the results depend on the processing

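IL11 was called higher under every pseudocount, filter and scaling tried and at 1.5-fold, and lost the call at 4-fold. OSMR was called under both other pseudocounts and both other filters. The number of family genes called higher, 2, became 1 with FPKM scaled to the same sum (a shift of every gene by -0.11 on the log2 scale before the pseudocount) and 1 with the same upper quartile (-0.08), 4 at 1.5-fold, where IL6ST and LIFR joined, and 0 at 4-fold. None of the chosen family genes was called lower under any setting. IL11RA, outside that choice, was called lower under every setting but the 4-fold threshold. Over the genes of the pathway lists without markers, 12 were called higher and 3 lower. With a pseudocount of 0.1 or 0.5 the number lower was 5, at 1.5-fold 24 were higher and 7 lower, and at 4-fold 2 were higher and 1 lower. Over all genes, a pseudocount of 0.1 gave 1076 higher and 1029 lower, a 1.5-fold threshold 2020 and 1674, a 4-fold threshold 61 and 59, and a filter of 5 FPKM 466 and 282. No call of a family gene, IL6R, IL11RA or CNTF changed direction under these settings. No paired analysis was possible because each group held 1 library. Depth and replicate spread are unknown, which limits every value, most of all those near or under 1 FPKM such as IL6R and CNTF.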

Other observations

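Genes nearest in level to the called family genes were found by Euclidean distance of log2(FPKM + 1) over the 2 libraries, which is too few points to say more than that the values were alike. Nearest to IL11 was RELB (distance 0.076), followed by ZFP36L2 (0.079) and AC144831.1 (0.082). RELB had 7.71 FPKM in the resistant and 2.49 FPKM in the parental library, beside 8.14 FPKM in the resistant and 2.42 FPKM in the parental library for IL11. Nearest to OSMR were EIF2S2, a translation initiation factor subunit (distance 0.022), SUPV3L1, a mitochondrial RNA helicase (0.048), and AZIN1, an inhibitor of antizyme (0.067). EIF2S2 had 66.6 FPKM in the resistant and 32.6 FPKM in the parental library.

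CCL26, an eosinophil chemokine under the filter of 1 FPKM, had 0.687 FPKM in the resistant and 0.185 FPKM in the parental library. PECAM1, an endothelial adhesion molecule, also under the filter, had 0.0225 FPKM in the resistant and 0.921 FPKM in the parental library. Both CCL26 and PECAM1 were chosen after their values were seen.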
